A study of Mus musculus with 6 samples.

Results

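Plasma cells are the antibody-secreting end stage of the B cell lineage, and 7 genes that mark them are described here across sorted bone marrow cells: Irf4, Prdm1, Xbp1, Sdc1, Derl3, Mzb1 and Jchain. The members were chosen by name, with earlier results of these data known, and all 7 were found among the 30803 rows of the deposited tables. The comparison is between MHCII-hi and MHCII-lo fractions of bone marrow cells labelled hematopoietic stem cells (HSCs), from which all blood lineages derive, taken from wild-type mice (titled Ctrl) at 5 months and kept free of specific pathogens, with no treatment named. Each fraction had 3 poly(A) RNA-seq libraries. All 6 libraries share the genotype and the tissue, while nothing was stated on the surface gate, the mouse strain or any pooling of animals. The deposited values were read as FPKM, fragments scaled to transcript length and to library size, which allows levels to be compared between genes.

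In B cells, the transcription factor IRF4 and the repressor BLIMP-1, the product of Prdm1, shut down the B cell programme, with PAX5 and BCL6 on the opposing side. XBP1 is made active when the sensor IRE1 splices its mRNA, and it then raises the genes that let the endoplasmic reticulum (ER) handle large amounts of secreted protein. DERL3 takes part in clearing misfolded proteins from the ER, MZB1 is an ER protein that assists immunoglobulin assembly, and JCHAIN joins IgM and IgA into polymers. SDC1 (CD138), a heparan sulfate proteoglycan, is the surface protein by which plasma cells are usually recognised. Some of the 7 also serve other cells: IRF4 and XBP1 also act in dendritic cells, and BLIMP-1 in T cells and macrophages.

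Among the promoters of these genes, that of Derl3 held an element known from ER stress. Its sequence is shown because most of the listed ER genes with the same element differed in the opposite direction. RefSeq windows of 300 bases, from 250 bases before the annotated start, were available for 6 of the 7 genes in build GRCm38.p6. The ER stress response element was searched on both strands as CCAAT, any 9 bases and CCACG, a sequence to which NF-Y and the stress factor ATF6 bind. It was found in 39 of 32851 promoter windows (0.119%), and among the 6 windows only in that of Derl3, on the strand opposite to the gene, 156 to 138 bases before the start. It contains 1 CCAAT and 1 CCACG that also count as matches of those shorter motifs. In the Derl3 window (chr10:75893148-75893447, plus strand) the element is in capitals:
Derl3: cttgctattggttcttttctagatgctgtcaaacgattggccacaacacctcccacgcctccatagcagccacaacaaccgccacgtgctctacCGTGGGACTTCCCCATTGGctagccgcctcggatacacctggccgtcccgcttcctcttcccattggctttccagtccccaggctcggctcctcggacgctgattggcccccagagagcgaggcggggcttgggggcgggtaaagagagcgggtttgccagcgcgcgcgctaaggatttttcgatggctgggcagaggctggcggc
The Jchain window (chr5:88527848-88528147, minus strand) is set beside it as the member with the largest difference, and held no match of the 8 motifs searched:
Jchain: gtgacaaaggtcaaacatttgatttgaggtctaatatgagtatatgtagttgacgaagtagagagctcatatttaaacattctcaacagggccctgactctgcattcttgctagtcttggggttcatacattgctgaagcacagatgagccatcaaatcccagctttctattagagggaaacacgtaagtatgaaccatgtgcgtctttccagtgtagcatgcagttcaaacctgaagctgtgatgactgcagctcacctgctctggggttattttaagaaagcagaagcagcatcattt
GC content was 62% in the Derl3 window and 42.3% in the Jchain window, with a median of 52.7% over all windows. The unfolded protein response element core TGACGTGG (0.676% of all windows), the octamer ATGCAAAT (1.74%), the ETS-IRF composite of GGAA, any 2 bases and GAAA (2.72%) and the interferon-stimulated element of GAAA, any 2 bases and GAAA (3.44%) matched none of the 6 windows. TATAAA, found in 13.6% of windows, matched that of Irf4 alone, 26 to 21 bases before the start. CCAAT (37.4% of windows) matched the windows of Prdm1, Derl3 and Sdc1, and CCACG (32.8%) those of Prdm1, Derl3, Sdc1 and Irf4. A match describes the letters and is no evidence of binding.

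**Figure D1:**
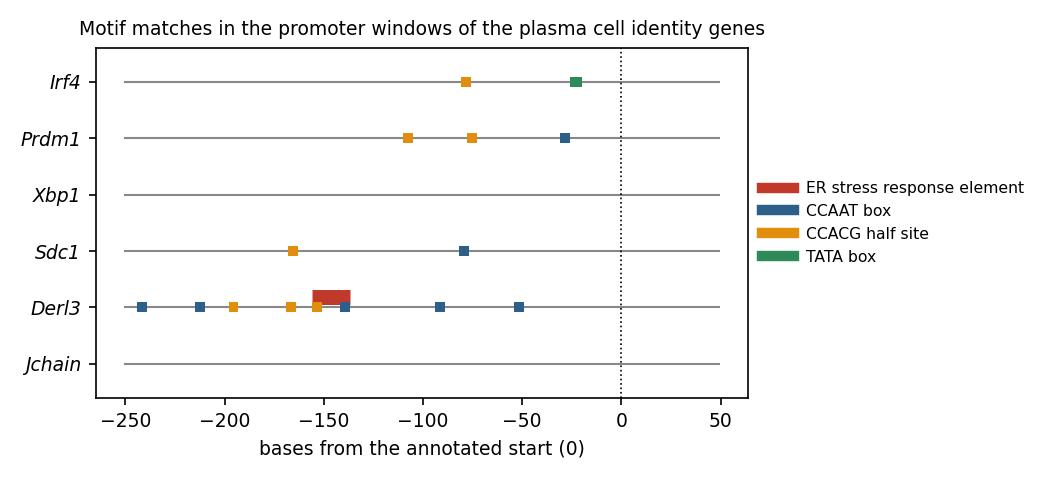
Motif matches in the RefSeq promoter windows of 6 plasma cell identity genes. The x axis gives bases from the annotated start (0, dotted line), each grey line is a window, and coloured blocks mark matches on either strand. The ER stress response element (red) lies only on the Derl3 line, where 5 CCAAT matches were found, and the lines of Xbp1 and Jchain carry no match.

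The libraries of a group were nearly alike, with Pearson's r of log2(FPKM + 1) across tested genes of 0.990 to 0.994 within a group and 0.905 to 0.909 between groups, and no pair of libraries was identical. Whether the 3 libraries of a group stem from different animals is not stated, so the p-values reflect library-to-library spread that may be technical. The depth behind the values is unknown, so none carries a counting interval. Among the 12295 genes averaging 1 FPKM or more, limma on log2(FPKM + 1) put 3348 (27.2%) higher and 4982 (40.5%) lower in MHCII-hi at a Benjamini-Hochberg adjusted p under 0.05, and with median-of-ratios scaling it called 4090 higher and 4001 lower. Immunoglobulin segments took 8.26% to 8.34% of the FPKM in MHCII-hi and 0.392% to 0.458% in MHCII-lo. The label was checked against 12 HSC markers: Kit averaged 10.9 ± 0.208 FPKM in MHCII-hi and 10.9 ± 0.0306 FPKM in MHCII-lo (SD, n = 3 each), while Procr, Slamf1, Mecom, Hoxb5 and Fgd5 stayed under 1 FPKM in every library and Hoxb5 was listed at 0 in all 3 MHCII-lo libraries and in 2 of the MHCII-hi ones. These defining HSC markers thus went against the label, so the samples are named by their sorted fraction. Because these are bulk samples, fewer cells of a type and less RNA per cell cannot be told apart.

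All 7 plasma cell identity genes were higher in MHCII-hi, and for each the lowest MHCII-hi library lay above the highest MHCII-lo library. The same separation was seen in 29.6% of all tested genes, and 27.2% of them were called higher. Prdm1 and Derl3 averaged under 1 FPKM in MHCII-lo, so they passed the minimum only through MHCII-hi and could not be called lower. The ratio of mean FPKM was at least 2 in 6 of the 7, against 5.58% of tested genes that were called higher at that size. Since the genes were picked with these differences known, their values are given as a description without p-values. The smallest ratio was that of Xbp1 and the largest that of Jchain.

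Irf4, which encodes the interferon regulatory factor needed for plasma cell formation (chromosome 13, 30749226 to 30766976, plus strand, GRCm38, protein-coding), had 19.19, 20.56 and 20.26 FPKM in the MHCII-hi libraries and 2.02, 2.30 and 2.34 FPKM in the MHCII-lo libraries. The groups were far apart and each spread little, with a ratio of means of 9.01. Its log2 difference was 2.71 ± 0.05 (SE) on the log2(FPKM + 1) scale used throughout.

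Prdm1, the gene of BLIMP-1 (chromosome 10, 44437177 to 44528501, minus strand), had the lowest mean of the 7 in both groups. It had 2.20, 2.24 and 2.15 FPKM in MHCII-hi and 0.63, 0.64 and 0.63 FPKM in MHCII-lo. The ratio of means was 3.47, and the log2 difference of 0.97 ± 0.06 (SE) understates it because the level is close to the added 1 FPKM. Its RefSeq promoter window lies inside the longer GENCODE gene, so it represents only 1 of the annotated starts.

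Xbp1, the factor that drives the secretory programme (chromosome 11, 5520659 to 5525893, plus strand), was abundant in both fractions and differed least. It had 66.58, 69.07 and 69.36 FPKM in MHCII-hi and 53.54, 54.31 and 54.08 FPKM in MHCII-lo. The ratio was 1.27 and the log2 difference 0.33 ± 0.02 (SE). One value per gene does not separate the spliced from the unspliced mRNA, so the active form was not measured.

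Sdc1 (chromosome 12, 8771323 to 8793715, plus strand) was present at a low level, with 4.16, 4.55 and 4.18 FPKM in MHCII-hi and 1.74, 1.44 and 1.21 FPKM in MHCII-lo. The ratio was 2.94 and the log2 difference 1.11 ± 0.09 (SE). The MHCII-lo libraries scattered more in proportion, with a coefficient of variation of 5.11% in MHCII-hi and 18.2% in MHCII-lo.

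Derl3 (chromosome 10, 75893413 to 75895941, plus strand) had 6.87, 6.98 and 6.01 FPKM in MHCII-hi and 0.85, 0.52 and 0.73 FPKM in MHCII-lo. The ratio was 9.46 and the log2 difference 2.17 ± 0.09 (SE). Its MHCII-lo values had the widest scatter of the 7 genes, a coefficient of variation of 23.9%, and all 3 lay under 1 FPKM.

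Mzb1 (ENSMUSG00000024353.5, chromosome 18, minus strand) had 24.68, 20.98 and 21.66 FPKM in MHCII-hi and 2.12, 2.61 and 2.10 FPKM in MHCII-lo. The ratio was 9.86 and the log2 difference 2.84 ± 0.08 (SE). It is the only member that the annotation overlaps with another gene model, SPATA24, on the same strand, and how the reads shared by both were assigned was not stated.

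Jchain (chromosome 5, 88519809 to 88527891, minus strand) had 343.67, 337.21 and 342.86 FPKM in MHCII-hi and 19.80, 16.43 and 16.55 FPKM in MHCII-lo. The ratio was 19.4 and the log2 difference 4.21 ± 0.07 (SE), which ranked 60 from the top among the 12295 tested genes. Its level ranked 97 of 30803 rows in MHCII-hi and 2849 in MHCII-lo.

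**Figure D2:**
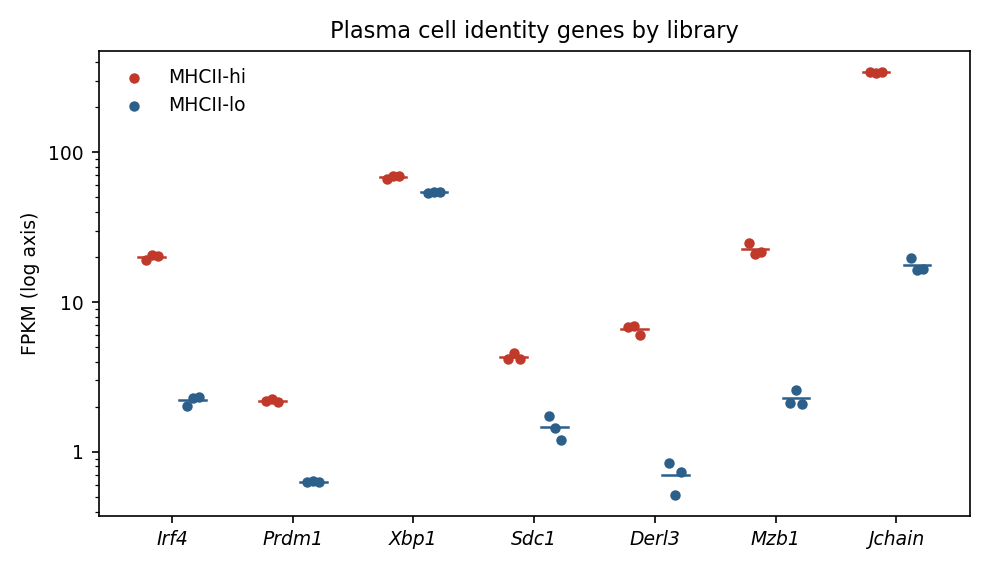
FPKM of the 7 plasma cell identity genes on a log axis. Each point is a library, red for MHCII-hi and blue for MHCII-lo with 3 each, and each line is the group mean. No gene has overlapping groups, and the gap is narrowest for Xbp1 (ratio 1.27) and widest for Jchain (ratio 19.4).

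The order of the levels differed between the fractions for Jchain and Xbp1 and for Derl3 and Sdc1, and neither pair overlapped in either fraction. In MHCII-hi the mean FPKM ran from Jchain at 341 ± 3.52 through Xbp1 at 68.3 ± 1.53, Mzb1 at 22.4 ± 1.97, Irf4 at 20.0 ± 0.720, Derl3 at 6.62 ± 0.531 and Sdc1 at 4.30 ± 0.220 to Prdm1 at 2.20 ± 0.0451 (SD, n = 3). In MHCII-lo it ran from Xbp1 at 53.98 ± 0.395 through Jchain at 17.6 ± 1.91, Mzb1 at 2.28 ± 0.289, Irf4 at 2.22 ± 0.174, Sdc1 at 1.46 ± 0.266 and Derl3 at 0.700 ± 0.167 to Prdm1 at 0.633 ± 0.00577 (SD, n = 3). The libraries of Mzb1 and Irf4 overlapped in MHCII-lo, as did those of Derl3 and Prdm1, so those neighbours had no order there. In MHCII-hi the means of Mzb1 and Irf4 lay little further apart than the SD of Mzb1.

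Of the 8 interferon regulatory factors tested, 4 were called higher, Irf4 among them, and 2 lower by limma. The shares over all tested genes were 27.2% higher and 40.5% lower. Irf4 differed by a factor of 9.01, Irf1, Irf2 and Irf7 rose 1.29-fold, 1.47-fold and 1.41-fold, and Irf3 and Irf9 did not pass (limma adjusted p = 0.148 and 0.124). Both passed as higher with median-of-ratios scaling (adjusted p = 0.00805 and 0.0176) and with quantile normalization (0.0381 and 0.0409). Irf8, a factor of dendritic cells and of early B cells, fell to 40.8 ± 0.523 FPKM in MHCII-hi, against 51.9 ± 0.560 FPKM in MHCII-lo (limma adjusted p = 1.35e-05). Irf5 fell to 33.5 ± 0.541 FPKM, against 40.5 ± 0.780 FPKM. The ratio of Irf4 to Irf8 was 0.472 to 0.509 in MHCII-hi libraries and 0.0390 to 0.0456 in MHCII-lo libraries.

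The PRDM family, to which BLIMP-1 belongs, had 6 tested genes, of which 4 were called higher, Prdm1 among them, and none lower. Over all tested genes 27.2% were called higher and 40.5% lower. Prdm2 stood at 18.2 ± 0.192 FPKM in MHCII-hi and 11.8 ± 0.105 FPKM in MHCII-lo. Prdm9 averaged 1.95 ± 0.306 FPKM in MHCII-hi and 1.09 ± 0.244 FPKM in MHCII-lo. Prdm4 differed by only 1.08-fold, and its call (limma adjusted p = 0.0446) was lost under 8 of the alternatives, without a filter, with the replicate block, with the trend on transcript length removed and without any of 5 libraries in turn, at adjusted p-values of 0.0555 to 0.116. Prdm10 and Prdm15 did not pass (limma adjusted p = 0.874 and 0.0681), although Prdm15 passed as higher with median-of-ratios scaling (adjusted p = 0.0174), and Prdm8 was listed at 0 in every library.

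Sdc1 did not differ most among the syndecans. Sdc4 had 7.02, 6.61 and 6.09 FPKM in MHCII-hi and 1.37, 1.03 and 1.43 FPKM in MHCII-lo, a 5.15-fold rise (limma adjusted p = 4.58e-06). Sdc3 rose 1.40-fold (limma adjusted p = 0.000189), and Sdc2 stayed under 1 FPKM. The ratio of Sdc1 to Sdc4 was 0.656 ± 0.0547 in MHCII-hi and 1.17 ± 0.289 in MHCII-lo (SD, n = 3).

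Derl3 moved against its relatives. Derl1, the most abundant derlin, fell to 29.1 ± 0.320 FPKM in MHCII-hi, against 37.4 ± 0.733 FPKM in MHCII-lo (limma adjusted p = 2.16e-05). Derl2 fell to 3.78 ± 0.213 FPKM, against 4.51 ± 0.0569 FPKM (limma adjusted p = 0.00762), a call that was lost once the trend on transcript length was removed (adjusted p = 0.0678). Derl3 exceeded Derl2 in MHCII-hi, with a ratio of 1.51 to 1.97, and reached 0.115 to 0.191 of it in MHCII-lo.

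**Figure D3:**
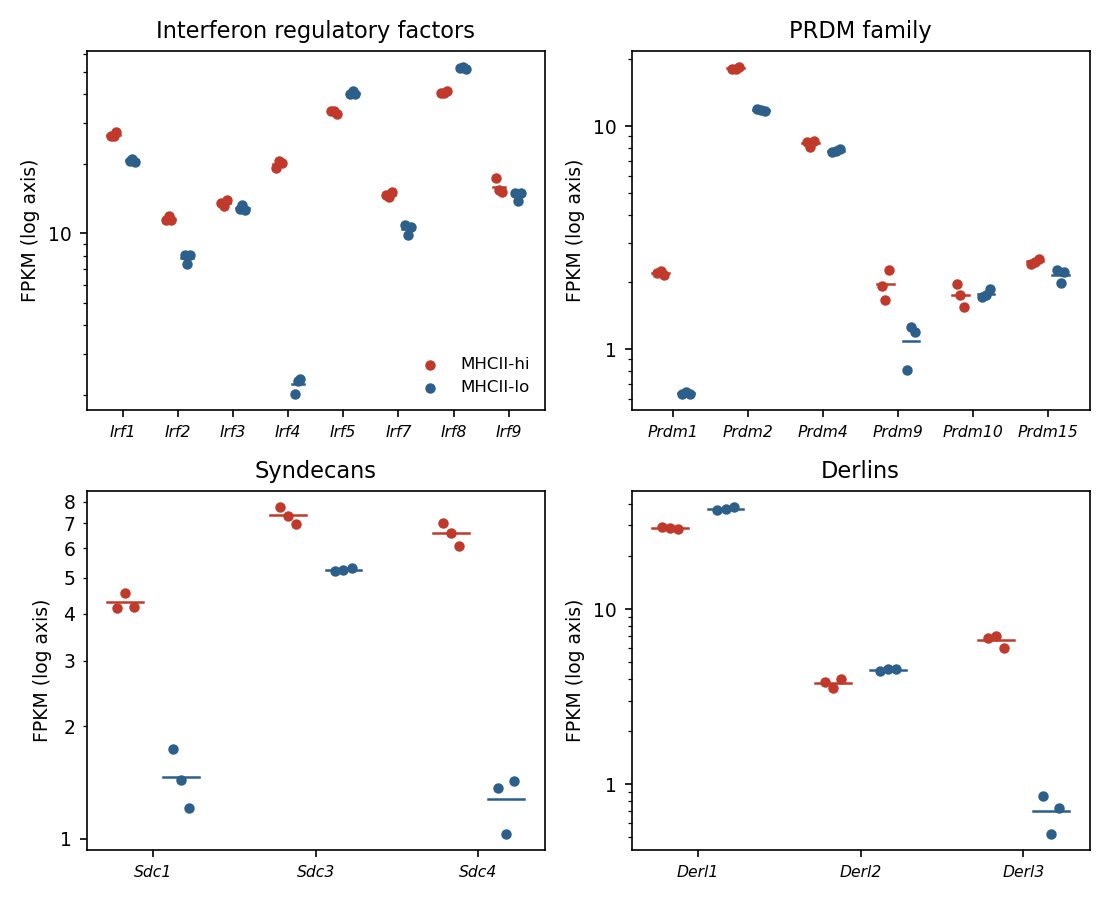
FPKM by library (log axis) of the tested interferon regulatory factors, PRDM genes, syndecans and derlins, red for MHCII-hi and blue for MHCII-lo, with lines at the means of 3 libraries. Irf4 and Derl3 stand apart between groups where Irf8, Derl1 and Derl2 lie lower in MHCII-hi, and Sdc4 is separated more widely than Sdc1.

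The other genes of plasma cell differentiation were mostly higher. Of 8 listed cofactors 6 reached the minimum level and limma called all 6 higher, beside 27.2% of all tested genes. Their median log2 difference was 0.63, against -0.08 over all tested genes. Pou2af1, the coactivator that works with octamer factors on immunoglobulin genes, averaged 38.95 ± 2.13 FPKM in MHCII-hi and 3.73 ± 0.210 FPKM in MHCII-lo (limma adjusted p = 5.11e-08). Ikzf3, which encodes Aiolos, rose 3.72-fold, Ell2, an elongation factor that favours the secreted form of the heavy chain, 1.86-fold, and Pou2f2, which encodes OCT2, 1.67-fold. Zbtb20 and Zbtb32 were below the minimum and were not tested.

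Among 14 surface and survival genes 9 rose and 3 fell, beside 27.2% higher and 40.5% lower over all tested genes. Tnfrsf17 (BCMA), the receptor through which plasma cells receive survival signals, had 3.32, 3.63 and 3.13 FPKM in MHCII-hi and 0.26, 0.20 and 0.32 FPKM in MHCII-lo (limma adjusted p = 2.58e-06). The BAFF receptor Tnfrsf13c, which belongs to B cells before that stage, rose 11.7-fold to 8.56 ± 0.173 FPKM, from 0.733 ± 0.0252 FPKM in MHCII-lo. Tnfrsf13b (TACI) averaged 17.1 ± 0.876 FPKM in MHCII-hi and 17.8 ± 0.394 FPKM in MHCII-lo and did not pass (limma adjusted p = 0.265). Slamf7 rose 4.79-fold and Cd38 8.07-fold, the latter from 0.380 ± 0.01 FPKM in MHCII-lo, and Cd93, Il6ra and Il6st fell. Tnfrsf17, Tnfrsf13c and Cd38 averaged under 1 FPKM in MHCII-lo. They passed the minimum only through MHCII-hi and could not be called lower.

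The genes that BLIMP-1 and its partners silence in plasma cells were higher together with the plasma cell genes. Among 18 listed genes 14 were tested. Of these 12 rose, Irf8 fell and S1pr2 missed the threshold (limma adjusted p = 0.0603), with a median log2 difference of 1.91. The shares over all tested genes were 27.2% higher and 40.5% lower. S1pr2 was also called lower without MHCII-hi replicate 1 (adjusted p = 0.0107) and with quantile normalization (adjusted p = 0.0263). Pax5, the guardian of B cell identity, averaged 12.6 ± 0.272 FPKM in MHCII-hi and 1.02 ± 0.0153 FPKM in MHCII-lo (limma adjusted p = 3.01e-08). Spib rose 6.45-fold and Bach2 6.80-fold, while Bcl6, the germinal centre repressor, rose 1.94-fold to 7.05 ± 0.314 FPKM. Ms4a1 (CD20) rose 29.5-fold from only 0.223 ± 0.0404 FPKM in MHCII-lo, where the unknown depth leaves the fold uncertain. Ms4a1, Bach2, Ebf1 and Ciita averaged under 1 FPKM in MHCII-lo. These 4 passed the minimum only through MHCII-hi and could not be called lower. The ratio of Prdm1 to Pax5 was 0.167 to 0.182 in MHCII-hi libraries and 0.606 to 0.634 in MHCII-lo libraries, and that of Irf4 to Pax5 was 1.54 to 1.67 in MHCII-hi and 1.94 to 2.29 in MHCII-lo. In MHCII-hi libraries Prdm1 thus stood lower relative to Pax5, although both were higher in FPKM.

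The cargo that these genes serve was measured as the constant regions of the antibody chains. Of 12 listed constant regions, Ighe stayed under 1 FPKM in every library and was not tested. All 11 tested constant regions rose, by a median log2 difference of 4.0, beside 27.2% of all tested genes called higher. Ighg3 averaged 0.59 FPKM in MHCII-lo, so it passed the minimum only through MHCII-hi and could not be called lower. Igha, the IgA heavy chain, had 1037.24, 1025.64 and 1037.53 FPKM in MHCII-hi and 30.43, 24.20 and 24.20 FPKM in MHCII-lo, and Ighm, the IgM heavy chain, 854.33, 857.32 and 854.29 FPKM in MHCII-hi and 165.18, 165.11 and 162.97 FPKM in MHCII-lo. Both are the classes that JCHAIN joins. Of the FPKM of the 8 heavy chain constant regions, Igha made up 35.7 ± 0.215% in MHCII-hi and 11.3 ± 1.12% in MHCII-lo, while Ighm made up 29.5 ± 0.130% in MHCII-hi and 70.7 ± 2.26% in MHCII-lo (SD, n = 3). The ratio of Jchain to Igha was 0.330 ± 0.00130 in MHCII-hi and 0.671 ± 0.0179 in MHCII-lo, while that of Jchain to Ighm was 0.399 ± 0.00491 in MHCII-hi and 0.107 ± 0.0112 in MHCII-lo (SD, n = 3). Jchain was thus lower relative to Igha and higher relative to Ighm in MHCII-hi. The ratio of Jchain to Cd79a, a chain of the B cell receptor, was 5.12 ± 0.260 in MHCII-hi and 3.10 ± 0.349 in MHCII-lo (SD, n = 3). Reads may be split between constant regions of similar sequence, which leaves their single levels uncertain.

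The general secretory machinery went the other way. Over 4 lists of the ER and of transport to the Golgi, 98 genes were tested, and limma called 13 higher (27.2% of all tested genes were) and 71 lower (40.5%). The median log2 difference was -0.29, against -0.08 over all tested genes, and -0.24 with the trend on transcript length removed. At least 2-fold differences were few, 1 higher and 2 lower, against 5.58% and 2.78% of all tested genes. Xbp1, the factor known to raise this machinery in plasma cells, was 1.27 times higher in the same libraries.

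Among 24 translocation genes 20 fell, and Tram2 alone rose, 1.94-fold. Sec61g, a subunit of the translocation channel, fell to 8.11 ± 0.590 FPKM in MHCII-hi, against 22.01 ± 0.883 FPKM in MHCII-lo (limma adjusted p = 1.97e-06), and Sec61b, Sec11a and Spcs2 fell by 0.79, 0.84 and 0.73 on the log2 scale. Of 30 folding and glycosylation genes 26 fell. Prdx4, a peroxiredoxin of the ER, fell to 10.0 ± 0.124 FPKM, against 20.8 ± 0.780 FPKM (limma adjusted p = 1.08e-06), and Canx, Sdf2l1 and Stt3b fell by 0.78, 0.77 and 0.73. The 3 that rose were Dnajb9, a cochaperone that restrains IRE1, 1.55-fold, and Txndc5 and Txndc11, both 1.17-fold. Fkbp11, often listed with plasma cell genes, averaged 1.43 ± 0.145 FPKM in MHCII-hi and 1.24 ± 0.0981 FPKM in MHCII-lo and did not pass (limma adjusted p = 0.223).

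In ER-associated degradation, the pathway of DERL3, 6 of 20 genes rose and 8 fell, Derl3 not counted, with a median log2 difference of -0.01. These counts are near the shares over all tested genes (27.2% higher and 40.5% lower). The count of higher genes was 10 with median-of-ratios scaling and also 10 with the length trend removed. Syvn1, the ubiquitin ligase of this pathway, averaged 20.2 ± 1.10 FPKM in MHCII-hi and 9.42 ± 0.176 FPKM in MHCII-lo (limma adjusted p = 2.36e-06), and Herpud1, which binds it, rose 1.65-fold. Vcp, the ATPase that extracts the substrates, fell to 59.7 ± 1.47 FPKM, against 96.5 ± 2.48 FPKM, and Selenos fell by 0.56. Of 24 genes of transport to the Golgi 17 fell and 3 rose (Sec24a, Sec24b and Sec16a), with Sar1b, Sec13, Mcfd2 and Tmed2 lower by 0.60 to 0.70.

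**Figure D4:**
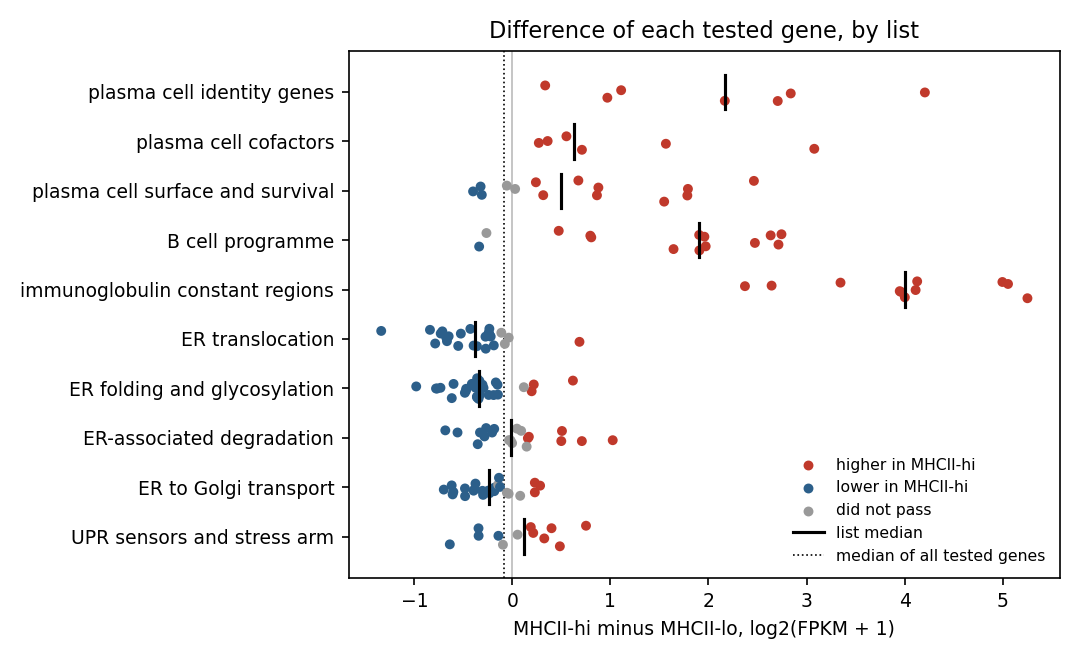
Difference of each tested gene between MHCII-hi and MHCII-lo on the log2(FPKM + 1) scale, by list, in red where limma called it higher, blue where lower and grey where it did not pass. Black bars are list medians and the dotted line is the median of all tested genes (-0.08). The median is 2.17 for the plasma cell identity genes and 4.0 for the constant regions, while the translocation and folding lists have medians of -0.38 and -0.34.

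The ER stress response element set Derl3 beside genes that fell. Of the 78 secretory genes with a promoter window, 8 held the element (10.3%, against 0.119% of all windows), and 7 of these were called lower and only Syvn1 higher. With or without the element, 71 of the 98 tested secretory genes were called lower, as were 40.5% of all tested genes. Other windows with the element were not examined. The lists include textbook targets of the ER stress response, so the share of 10.3% is no independent result. The sites are shown from CCAAT to CCACG, with these letters in capitals and the 9 bases between in lower case, to set Derl3 beside these genes, which were chosen after their values were seen:
Derl3: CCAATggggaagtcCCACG
Hspa5: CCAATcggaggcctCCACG
Hsp90b1, upstream site: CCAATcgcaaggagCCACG
Hsp90b1, downstream site: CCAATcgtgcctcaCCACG
Dnajc3: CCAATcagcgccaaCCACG
Creld2: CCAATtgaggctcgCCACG
Pdia6: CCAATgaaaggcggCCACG
Calr: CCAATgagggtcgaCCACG
Canx: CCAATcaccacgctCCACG
Syvn1: CCAATcggcggtagCCACG
The Derl3 site lies at chr10:75893242-75893260 on the minus strand, the Hspa5 site at chr2:34772025-34772043 on the plus strand and the Syvn1 site at chr19:6046532-6046550 on the plus strand, all in GRCm38.p6. Hspa5, the ER chaperone BiP, averaged 330.1 ± 2.96 FPKM in MHCII-hi and 424 ± 2.24 FPKM in MHCII-lo (limma adjusted p = 1.02e-06), and the ratio of MHCII-hi to MHCII-lo was 0.580 for Canx, 0.656 for Pdia6, 0.707 for Dnajc3, 0.787 for Creld2, 0.845 for Calr and 0.875 for Hsp90b1. The letters between CCAAT and CCACG differed at every site.

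Among 12 tested genes of the sensors and the stress arm of the unfolded protein response 6 rose and 4 fell, beside 27.2% higher and 40.5% lower over all tested genes, with a median log2 difference of 0.12. Ppp1r15a, which reverses the translation block of the stress response, averaged 111 ± 1.06 FPKM in MHCII-hi and 65.4 ± 0.998 FPKM in MHCII-lo (limma adjusted p = 2.70e-07). Sesn2 and Ddit3, which encodes CHOP, rose 1.49-fold and 1.36-fold, and Asns, asparagine synthetase, fell to 9.43 ± 0.0608 FPKM, against 15.2 ± 0.199 FPKM. Trib3 and Chac1 stayed under 1 FPKM.

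The members did not share a single profile over the 6 libraries. Likeness was measured as the Euclidean distance between log2(FPKM + 1) profiles, each centred on its own mean, over tested genes outside the immunoglobulin and T cell receptor loci. Among the 3 nearest genes to Irf4 were Pax5 (distance 0.157) and Ms4a1 (0.172), and among the 3 nearest to Mzb1 were Pax5 (0.281) and Ms4a1 (0.355). Derl3 lay nearest to Blk (0.248), Cd72 (0.305) and Scd1 (0.308). The other members and predicted gene models were also left out of the search. Among the genes searched, H2-Eb1 (0.642), Cd74 (0.889) and Fcmr (0.943) lay nearest to Jchain. Immunoglobulin genes outside the search had differences of like size, such as Iglc2 with a log2 difference of 4.11 beside 4.21 for Jchain. Prdm1 lay nearest to Slfn4 (0.0420), Apoe (0.0515) and Ceacam1 (0.0516), Xbp1 to Sipa1l3 (0.0304), Tmem123 (0.0329) and Ap1m1 (0.0332), and Sdc1 to Gpat3 (0.149), Mctp2 (0.162) and Ephx1 (0.166). The distance is set mainly by the size of the difference between groups, since the libraries within a group vary little. The added 1 FPKM shrinks the difference of low genes, so likeness also depends on level. Prdm1 had a ratio of means of 3.47, while its nearest gene Slfn4 averaged 106 FPKM in MHCII-hi and 54.2 FPKM in MHCII-lo.

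Marker lists of several cell types moved in the same libraries. Their counts stand beside 27.2% higher and 40.5% lower over all tested genes. A list of 9 further plasma cell markers, 8 of which also stand on the lists above, had 8 genes higher and summed to 1334 to 1338 FPKM in MHCII-hi and 80.6 to 90.3 FPKM in MHCII-lo, of which Igha alone averaged 1033 FPKM in MHCII-hi and 26.3 FPKM in MHCII-lo. All 11 B precursor markers rose (220.8 to 227 FPKM in MHCII-hi and 52.9 to 56.6 FPKM in MHCII-lo in sum), as did all 8 tested of 10 mature B cell markers (139 to 144 FPKM in MHCII-hi and 22.3 to 23.9 FPKM in MHCII-lo). Of the mature B cell markers, Cr2 stayed under 1 FPKM in every library, and Cr2, Fcer2a and Fcmr were each listed at 0 in at least 1 MHCII-lo library. Ms4a1 and Fcmr, and the precursor markers Rag2 and Ebf1, averaged under 1 FPKM in MHCII-lo. These genes passed the minimum only through MHCII-hi and could not be called lower, and such genes stood on other lists too. Of 12 markers of plasmacytoid dendritic cells, the interferon producers, 9 rose and 1 fell, and the list summed to 204 to 211 FPKM in MHCII-hi and 105 to 108 FPKM in MHCII-lo. Among conventional dendritic cell markers all 6 tested of 10 rose (116 to 123 FPKM in MHCII-hi and 55.8 to 57.6 FPKM in MHCII-lo), with Xcr1, Zbtb46 and Ccl22 under 1 FPKM. Of the tested T cell markers 8 of 9 rose and 1 fell (96.4 to 105 FPKM in MHCII-hi and 60.7 to 63.0 FPKM in MHCII-lo). Of the tested macrophage markers 6 of 8 rose and 1 fell (128 to 132 FPKM in MHCII-hi and 90.3 to 93.3 FPKM in MHCII-lo). NK cell markers gave 3 higher and 2 lower of 8, with 160.4 to 167 FPKM in MHCII-hi and 184 to 189 FPKM in MHCII-lo, and stromal and endothelial markers 2 and 2 of 5 tested, with 37.98 to 39.5 FPKM in MHCII-hi and 36.9 to 37.6 FPKM in MHCII-lo. Neutrophil markers summed to 22423 to 22747 FPKM in MHCII-hi and 16193 to 16232 FPKM in MHCII-lo. Of these 10 markers 7 rose and 2 fell, Mpo and Elane. Of the 12 HSC markers 7 were tested and 4 rose, and the list summed to 52.2 to 53.7 FPKM in MHCII-hi and 35.6 to 36.5 FPKM in MHCII-lo. The part of any of these cell types in the values of the 7 genes was not tested.

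**Figure D5:**
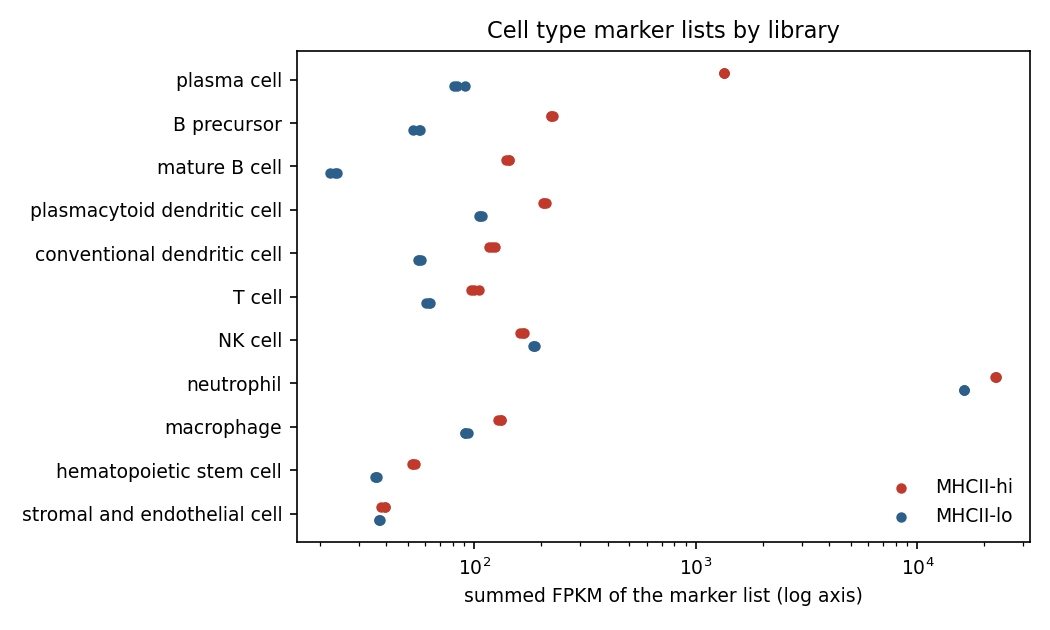
Summed FPKM of the marker list of each cell type on a log axis. Each point is a library, red for MHCII-hi and blue for MHCII-lo. The widest gap on the log axis is that of the plasma cell markers (1334 to 1338 in MHCII-hi and 80.6 to 90.3 in MHCII-lo). Igha alone averaged 1033 of this sum in MHCII-hi and 26.3 in MHCII-lo. The NK cell list is the only one whose sum is lower in all MHCII-hi libraries.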

How the data were processed

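Bone marrow HSC fractions were sequenced from stranded poly(A) libraries made from column-purified RNA, per the labels' protocols. Per the submitters' processing notes, reads went through fastp, HISAT2 and StringTie; settings are not stated, and the builds named there are mm10 and GRCm38. The deposited values were taken as FPKM, normalized by the authors for library size and transcript length, a unit inferred from the values because the file headers name only the library. Low values showed no steps of whole reads. Where a symbol occurred more than once, the row with the highest mean kept it. Gene positions come from GENCODE M21 on GRCm38, and promoter windows from RefSeq.

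The 2 fractions were compared by limma 3.58.1 in R 4.3.3, with a linear model and empirical Bayes moderation with a mean-variance trend on log2(FPKM + 1) of genes averaging 1 FPKM or more (two-sided, Benjamini-Hochberg over all tested genes), and the script was tested on simulated data. Folds are ratios of mean FPKM, and log2 differences understate the change of low genes. A gene averaging under 1 FPKM in 1 group passed the minimum only through the other group, which fixed its direction. Count-based tests were not run. Python 3.11.15 and pandas 2.3.3 served for the tables.

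The members and the gene lists were chosen with earlier results of these data known. Named are all members, their families, the constant regions and the B cell programme, from each other list up to 4 genes with the largest called difference and no overlap between groups, and for likeness the 3 nearest genes, except that some results are not reported here. Genes that complete a count of 5 or fewer, carry the ER stress response element, mark the cell types, or were singled out (Fkbp11, Tnfrsf13b, Zbtb20, Zbtb32, Trib3, Chac1) were named after their values were seen. Results were recomputed with each library left out, with the replicate block, without receptor segments, with median-of-ratios scaling, with quantile normalization, with a minimum of 5 FPKM or none, and with pseudocounts of 0.1 and 0.01. The removal of the trend on transcript length was added after the data were seen.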

Additional observations from a re-analysis of the deposited data

How the results depend on the processing

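For each of the 7 plasma cell identity genes every MHCII-hi library lay above every MHCII-lo library. Leaving out a library, the replicate block, another minimum or another pseudocount could therefore not reverse these genes. The direction of all 7 genes was the same under every alternative that tested them, the changes of scaling and the removed length trend included. Their log2 differences ranged from 2.63 to 3.17 for Irf4, 0.85 to 1.78 for Prdm1, 0.32 to 0.43 for Xbp1, 1.03 to 1.56 for Sdc1, 2.09 to 3.25 for Derl3, 2.77 to 3.30 for Mzb1 and 4.16 to 4.30 for Jchain, and the pseudocount of 0.01 gave the high ends for Irf4, Prdm1, Sdc1, Derl3 and Mzb1, and median-of-ratios scaling those for Xbp1 and Jchain. A minimum of 5 FPKM tested fewer genes. It left 4 members tested, all 4 called higher, and 2210 higher genes in all. Higher calls then numbered 3 cofactors, 5 genes of the B cell programme, 5 surface genes, 0 translocation genes, 2 PRDM genes, 1 syndecan and 0 derlins, with 1 derlin lower. Lower calls in the B cell programme were 2 with quantile normalization and 1 to 2 with each library left out. Higher calls in ER-associated degradation were 10 with median-of-ratios scaling and 10 with the length trend removed, which also left 1 derlin lower; the cause was not tested. Leaving out each library gave 3040 to 3198 higher and 4519 to 4791 lower genes. Replicates with the same number correlated at 0.0019 to 0.0804 in their deviations from the group means, and not every library correlated best with its own number, so the numbers are not known to pair the libraries, and the replicate block gave 3222 higher and 4809 lower genes. With the length trend removed, Irf3 and Prdm15 also passed as higher (adjusted p = 0.00405 and 0.0168). Prdm10, which passed under none of them, changed sign with median-of-ratios scaling (log2 difference 0.0461) and ranged from -0.0709 to 0.0419 with each library left out. Unknown depth limits what can be said of genes under 1 FPKM.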
